A study of Mus musculus with 2 samples.

Results

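The genes described here encode the enzymes of drug metabolism in the mouse colon: the cytochrome P450s of families 1 to 4, the UDP-glucuronosyltransferases (UGTs), the cytosolic sulfotransferases of families 1 and 2 (SULTs) and the cytosolic and mitochondrial glutathione S-transferases (GSTs). They were chosen by symbol and by abundance. Of the 31053 genes in the files, 137 had a symbol of these families, and 59 of those had at least 10 unique molecular identifiers (UMIs, each counting 1 RNA molecule) over the cells of both libraries. The 59 genes were 27 P450, 8 UGT, 5 SULT and 19 GST genes. A further 14 had 1 to 9 UMIs and 64 had none. Just inside the limit were Cyp4f17 with 14 UMIs, Cyp2c69 with 13, Cyp2r1 with 12, Ugt2b36 with 11 and Ugt1a6b with 10. Just outside were Gsto2 with 9, Cyp2d9 with 7, Cyp1b1 with 6, Cyp4x1 with 5 and Cyp4f15 with 4. These totals chose the genes and are a description only. The rule did not use the spread of the UMIs over cell classes or between libraries, but it was set with earlier results of these data known.

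P450 enzymes add an oxygen atom to lipophilic compounds, among them drugs, cannabinoids, steroids and fatty acids. UGTs, SULTs and GSTs then attach glucuronic acid, sulfate or glutathione, which makes the products soluble enough to be exported. In the gut these enzymes are best known from the epithelium, where they meet compounds from food, bile and bacteria before the blood does, and many of them also handle the body's own eicosanoids, bilirubin, steroids and lipid peroxides.

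The data are droplet single-cell RNA sequencing (10x Genomics, 5' gene expression) of the colon of wild-type C57BL/6 mice. There was 1 library from mice given Δ9-tetrahydrocannabinol (THC) at 10 mg/kg and 1 from mice given vehicle. The tissue was digested with EDTA and then enzymatically, and cells of the lamina propria were enriched on a Percoll gradient, so the shares of cell classes here are those left by the preparation. How many mice were used, their sex and age, what the vehicle was and when the doses were given is not stated in the labels. With 1 library per group, treatment and library cannot be told apart, and no test between them was possible. All intervals are exact Poisson 95% intervals unless stated. They cover counting error only, not the variation between mice, preparations or cells.

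Cells had at least 1000 UMIs, at least 200 genes and under 15% mitochondrial UMIs, which left 435 THC and 702 vehicle cells with medians of 9046 and 7537 UMIs. The libraries shared 0 cell barcodes. The 59 genes held 12553 of 4945822 UMIs in THC and 16670 of 6522425 in vehicle, or 2538 and 2556 UMIs per 1000000 (CPM). A UMI stands for 1 molecule read from its 5' end, so CPM were not divided by transcript length. Cells fell into 25 clusters, built without the 59 genes. Of these, 20 could be named from marker genes, giving 12 classes. They carry the ending "-like" since these names are not the authors' annotation. The epithelial classes were colonocyte-like (90 THC and 137 vehicle cells), goblet-like (46 and 79) and enteroendocrine-like (5 and 4) cells. The stromal ones were fibroblast-like (86 and 151), smooth muscle-like (46 and 66), endothelial-like (17 and 32) and mesothelial-like (5 and 2) cells. The immune ones were B-like (37 and 69), T-like (23 and 31), macrophage-like (14 and 35), dendritic-like (10 and 18) and plasma-like (6 and 11) cells.

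The THC matrix also held barcodes too small to be cells, and these show what free RNA the droplets carried. Over its 105817 barcodes of 1 to 100 UMIs the 59 genes made up 2749 CPM, and Cyp2c55 alone 1000.3 CPM (933 to 1071). The vehicle matrix held no such barcodes, and its smallest had 502 UMIs, so the same reading could not be made there.

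Colonocyte-like cells carried the most RNA of these families among the 6 classes of at least 20 cells per library. The summed level was 4390 CPM in THC and 5425 CPM in vehicle colonocyte-like cells. It was 1511 and 1589 CPM in fibroblast-like, 1466 and 1296 CPM in goblet-like and 1328 and 1430 CPM in smooth muscle-like cells. B-like cells held 413 and 271 CPM and T-like cells 298 and 399 CPM. The epithelial and stromal classes therefore stood above the lymphoid ones in both libraries. Among the smaller classes, mesothelial-like cells reached 2998 and 4159 CPM from 5 and 2 cells, and endothelial-like cells 1824 and 1685 CPM.

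**Figure D1:**
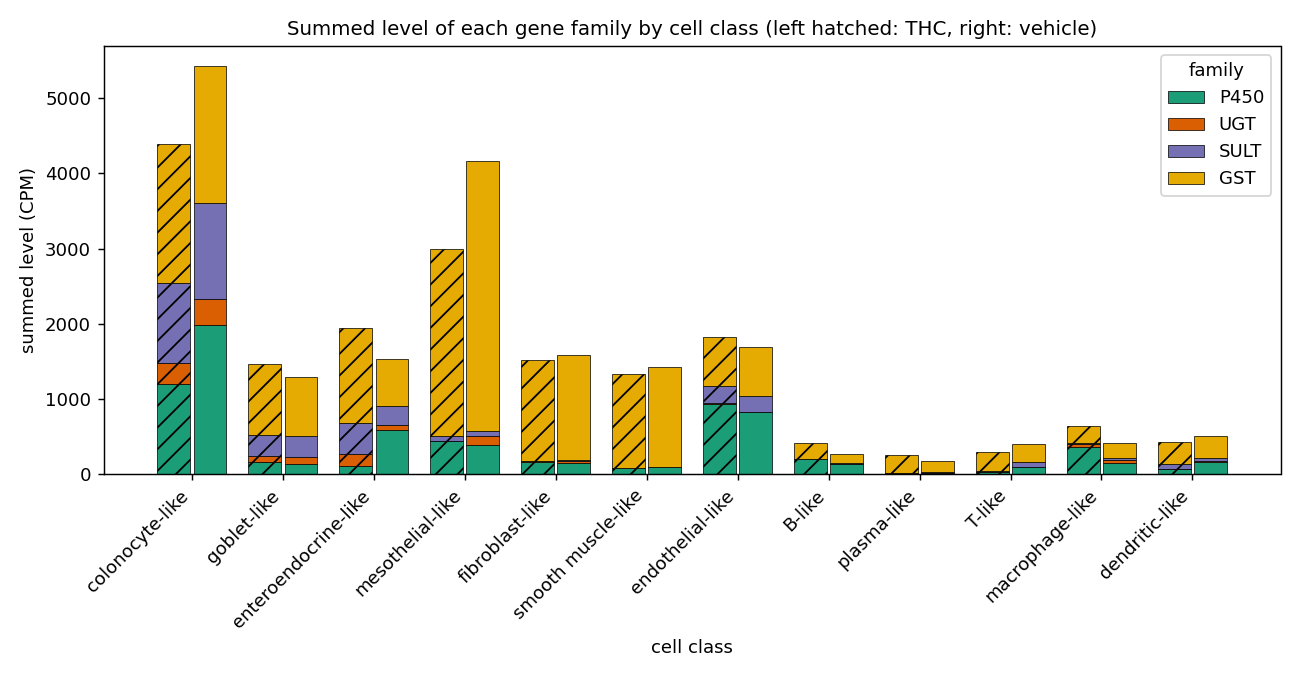
Summed level of each gene family by cell class in CPM, as stacked bars (left hatched bar THC, right plain bar vehicle, 1 library each, so no error bars). P450 and SULT RNA stood out in colonocyte-like cells, with 1202 and 1985 CPM of P450. Fibroblast-like and smooth muscle-like cells carried mostly GST RNA, with 1335 and 1408 CPM in fibroblast-like cells. Endothelial-like cells held 938 and 824 CPM of P450 RNA beside 649 and 650 CPM of GST RNA.

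The families differed in how they were spread. P450 RNA summed to 1202 and 1985 CPM (THC and vehicle) in colonocyte-like cells against 154 and 153 CPM in fibroblast-like cells. UGT RNA summed to 275 and 348 CPM in colonocyte-like, 91.9 and 95.5 CPM in goblet-like and 14.2 and 17.5 CPM in fibroblast-like cells, with 0 UMIs in smooth muscle-like cells. SULT RNA summed to 1061 and 1269 CPM in colonocyte-like cells and to 7.86 and 11.03 CPM in fibroblast-like cells. GST RNA was shared more evenly, at 1852 and 1823 CPM in colonocyte-like, 1335 and 1408 CPM in fibroblast-like and 1247 and 1338 CPM in smooth muscle-like cells.

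For each gene the class of highest CPM was then found among the 6 classes of at least 20 cells per library. Both libraries gave the same class for 49 of the 59 genes. Over the 14475 genes of all names with at least 10 UMIs this share was 58.9%. The class was colonocyte-like in both libraries for 39 of the 59, against 10.4% of all genes. Fibroblast-like cells were highest for 5 (11.9% of all genes), smooth muscle-like for 3 (11.4%), goblet-like for 1 (8.44%), B-like for 1 (7.05%) and T-like for 0 (9.71%). No test stands behind this difference from the background. The counts depended on depth, on the cell limit of a class and on the treatment of unnamed clusters. With each cell thinned to 1000 UMIs the same class was found for 29 genes and colonocyte-like cells led for 23. The shares over all genes were taken in the main setting only. The counts in other settings therefore have no background beside them. When the limit for a class was lowered to 10 cells per library, colonocyte-like cells led for 36. They led for 19 with the unnamed clusters of that size counted as classes too. The largest of these, a cycling cluster led by Mki67 and Ube2c, carried 3673 and 3803 CPM of the 59 genes. Colonocyte-like cells also depended on the mitochondrial limit: 35 and 38 remained under 10%, and no cluster was named colonocyte-like under 5%.

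**Figure D2:**
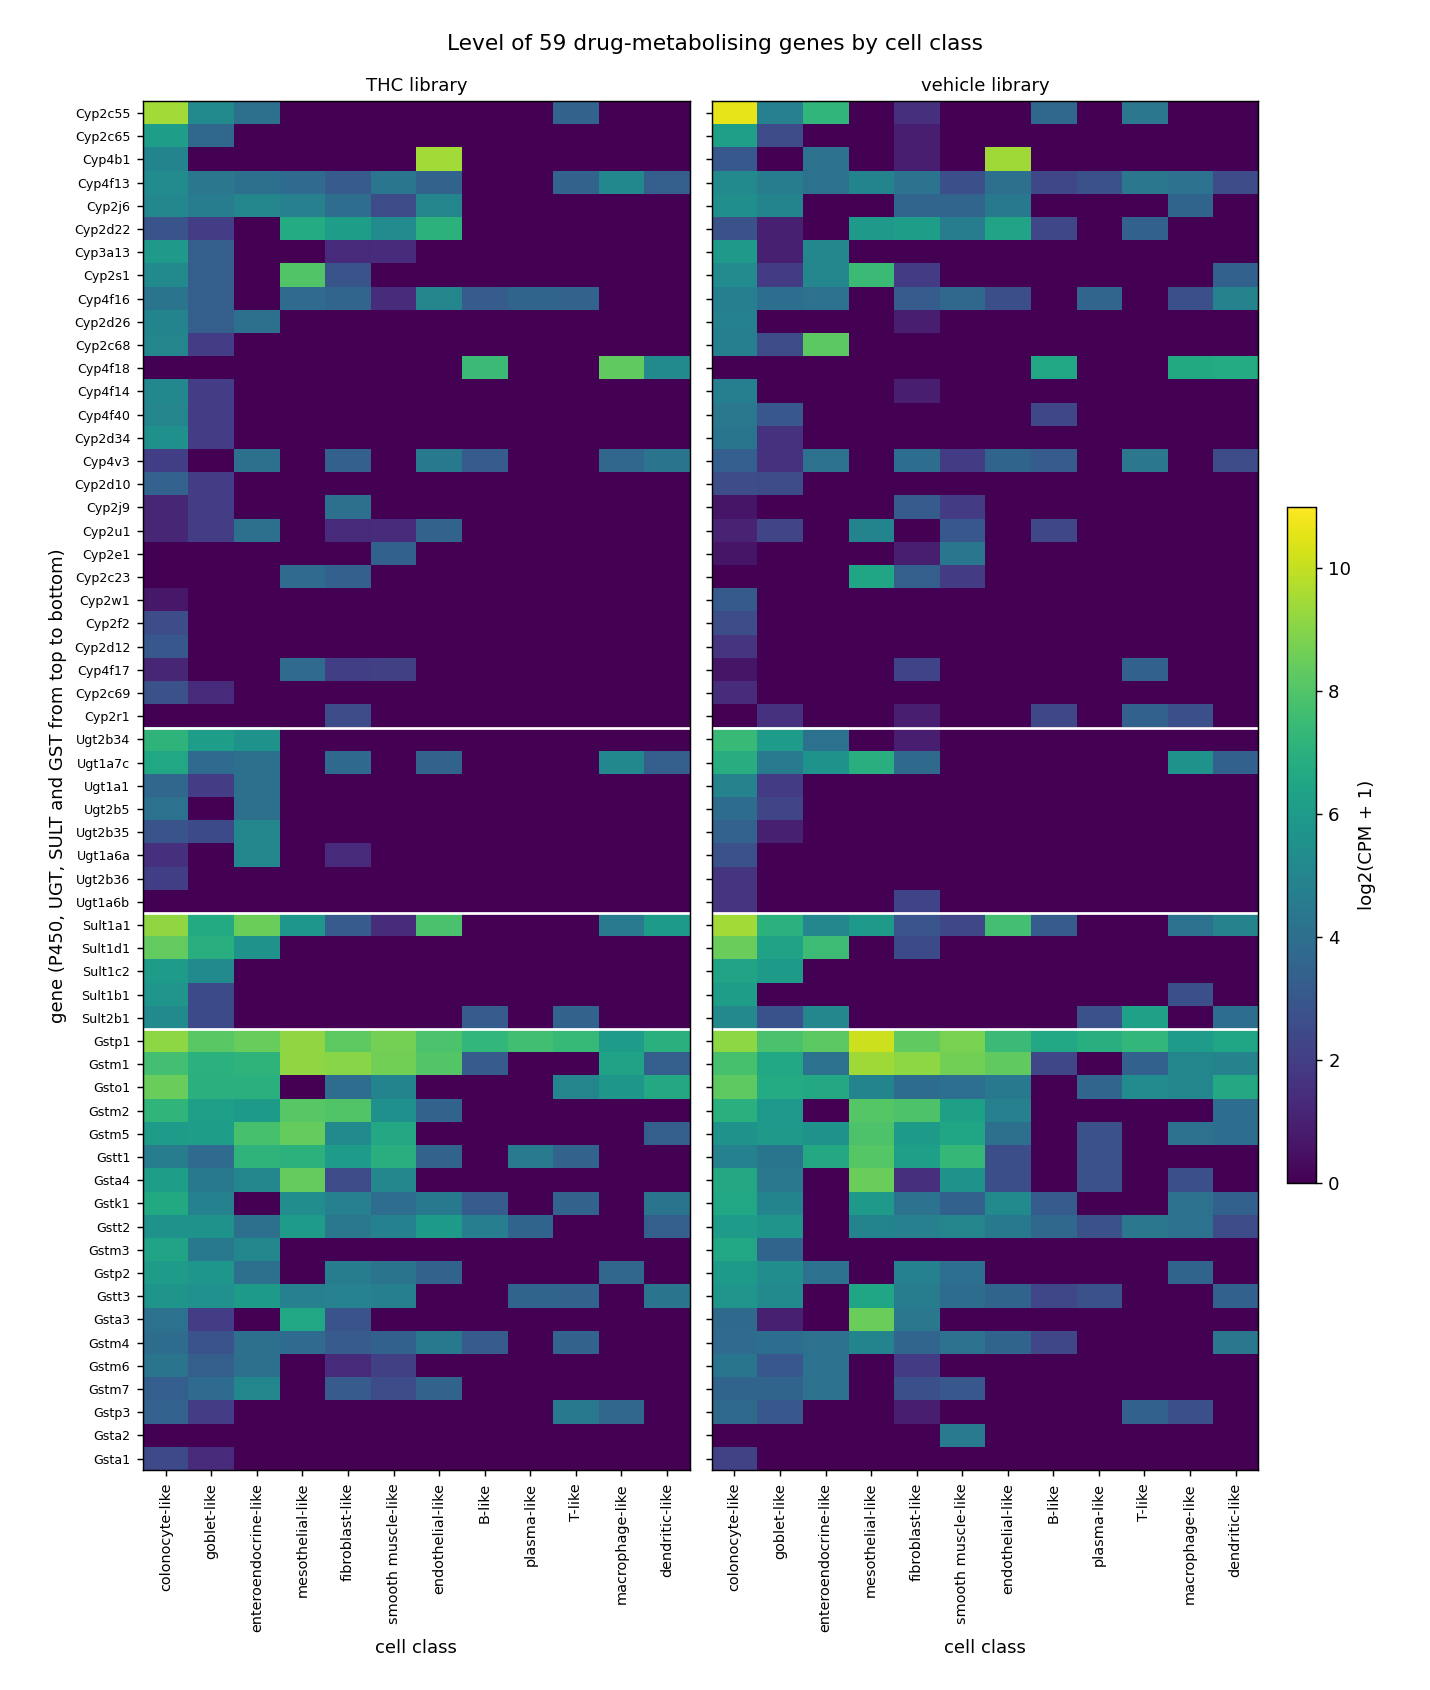
Level of all 59 genes (rows, by family) in the 12 named cell classes (columns) of the THC and vehicle libraries, as log2(CPM + 1). The left columns, colonocyte-like cells, are lit for most rows; Cyp4b1 is brightest in endothelial-like cells (701 and 687 CPM), Cyp4f18 appears in immune classes, and the mu-class GST genes extend into the stromal classes.

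Among the P450 genes, 18 of 27 were highest in colonocyte-like cells in both libraries: Cyp2c55, Cyp2c65, Cyp2c68, Cyp2c69, Cyp2d10, Cyp2d12, Cyp2d26, Cyp2d34, Cyp2f2, Cyp2j6, Cyp2s1, Cyp2w1, Cyp3a13, Cyp4b1, Cyp4f13, Cyp4f14, Cyp4f16 and Cyp4f40. Cyp2d22, Cyp2j9 and Cyp2c23 were highest in fibroblast-like cells, Cyp2e1 in smooth muscle-like cells and Cyp4f18 in B-like cells. Cyp4v3, Cyp2u1, Cyp4f17 and Cyp2r1 differed between the libraries, each with 71 UMIs or fewer in all. Of these, Cyp2r1 is a vitamin D 25-hydroxylase.

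Cyp2c55, which oxidises arachidonic and linoleic acid, was the P450 with the most UMIs. In colonocyte-like cells it stood at 707 CPM (1127 UMIs, 666 to 749) in THC and at 1540.2 CPM (2775 UMIs, 1483 to 1599) in vehicle. Nearly all of it came from 1 of the 3 colonocyte-like clusters, led by Fabp6, 1810065E05Rik and Car1, where 30 of 31 THC cells and 30 of 34 vehicle cells held a UMI. There the level was 1581 CPM (1487 to 1678) in THC and 4562 CPM (4391 to 4738) in vehicle. In the cluster led by Tgm3 and Saa1 it was 89.2 and 80.7 CPM, and in the cluster led by Edn1 and Kcnq1 7.43 and 80.7 CPM. The last cluster, whose first leading gene was Gm26917, has the weakest claim to its name. It met 3 colonocyte markers, the fewest allowed, against 8 in the cluster led by Tgm3 and 11 in that led by Fabp6. The unnamed cycling cluster led by Mki67 met 3 too. A cell of the cluster led by Fabp6 carried a very variable amount. In THC the median per cell was 665 CPM with quartiles of 259 and 1775 CPM, in vehicle 1359 CPM with quartiles of 656 and 3816 CPM, so the cells of the libraries overlapped widely. Over the whole class 45.6% of THC and 44.5% of vehicle cells held a UMI, and 18.9% (exact binomial interval 11.4 to 28.5) and 23.4% (16.6 to 31.3) after thinning to 1000 UMIs per cell. The 3 richest cells held 50.8% of the cluster's Cyp2c55 UMIs in THC and 51.1% in vehicle.

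**Figure D3:**
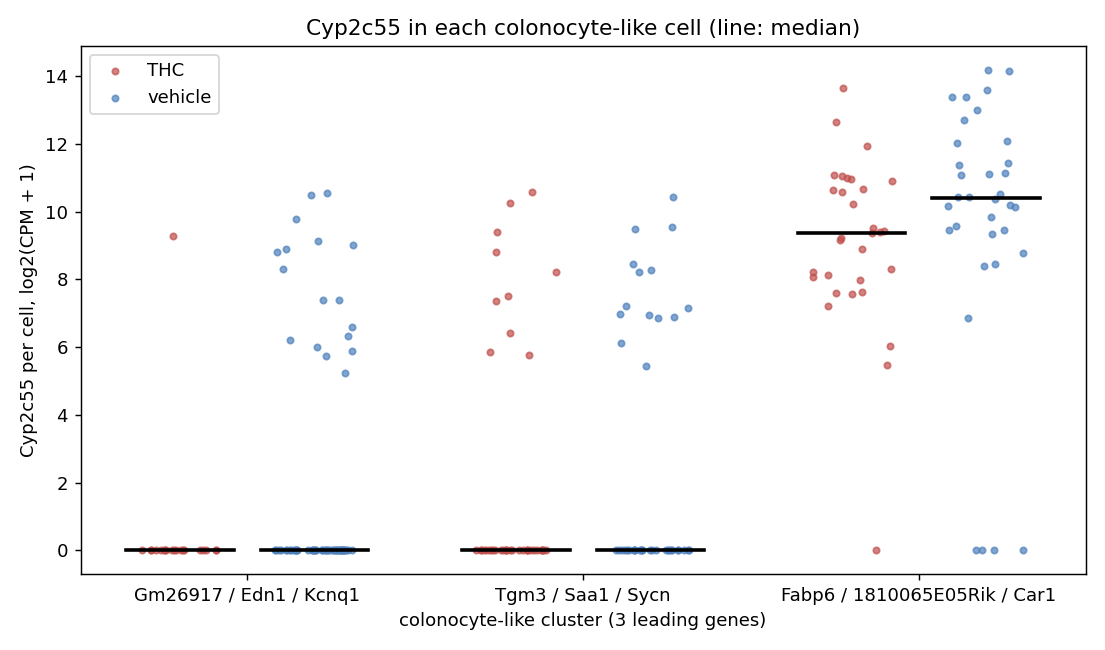
Cyp2c55 in every colonocyte-like cell, as log2(CPM + 1), in the 3 clusters named by leading genes (red THC, blue vehicle; each point 1 cell, horizontal offset arbitrary, line the median). In the cluster led by Fabp6 the medians were 665 CPM in THC and 1359 CPM in vehicle within widely overlapping clouds; in the other clusters the median cell held 0.

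Outside the epithelium Cyp2c55 was close to absent. Fibroblast-like cells held 0 UMIs in 86 THC cells (median depth 7744 UMIs), which allows up to 4.72 CPM, and 2 UMIs in 151 vehicle cells (median depth 7142 UMIs). Endothelial-like and smooth muscle-like cells held 0 in both libraries. These levels lie far under the 1000.3 CPM of the free RNA of the THC library. Goblet-like cells held 36.2 and 26.3 CPM, and 19 of the 24 THC UMIs of the class lay in 1 cell.

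The neighbour of Cyp2c55 on the chromosome, Cyp2c65, was also highest in the cluster led by Fabp6. It stood at 145 CPM in THC and 155 CPM in vehicle there, against 10.8 and 6.72 CPM in that led by Tgm3. Another pair of Cyp2c neighbours was placed differently. Cyp2c68 was found in the cluster led by Tgm3 at 70.8 and 77.3 CPM (46 UMIs in each library), and its levels in the cluster led by Fabp6 were 2.96 and 0 CPM. Cyp2c69, with 13 UMIs in all, was spread over both. So among colonocyte-like cells the RNA of Cyp2c55 and Cyp2c65 sat in 1 set and that of Cyp2c68, of the same subfamily, in another. Outside this class, Cyp2c68 reached 299.7 CPM in the 4 vehicle enteroendocrine-like cells, against 0 CPM in the 5 THC ones. Cyp2c65 and Cyp2c68 share part of their sequence with other Cyp2c genes, and 87.1% and 87.4% of the 50-base stretches at the 5' end of their transcripts were unique to them.

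The 250 bases before the start of these 3 Cyp2c genes are shown because the genes lie on the same chromosome and differ in the cells that hold their RNA. They come from the RefSeq promoter table (build GRCm38.p6), 5′ to 3′ on the strand of the gene. Capitals mark matches to TATAAA (the TATA box), GCGTG (the core of the xenobiotic response element) or TGACNNNGC (the antioxidant response element), on the strand shown or as the reverse complement. Cyp2c55 lies at chr19:39006769-39007018 on the plus strand, Cyp2c65 at chr19:39060756-39061005 on the plus strand and Cyp2c68 at chr19:39741102-39741351 on the minus strand.
Cyp2c55: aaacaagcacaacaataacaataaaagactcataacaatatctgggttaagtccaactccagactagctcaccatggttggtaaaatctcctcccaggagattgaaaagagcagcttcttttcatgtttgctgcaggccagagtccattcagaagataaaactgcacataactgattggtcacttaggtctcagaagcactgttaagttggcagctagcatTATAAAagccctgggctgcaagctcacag
Cyp2c65: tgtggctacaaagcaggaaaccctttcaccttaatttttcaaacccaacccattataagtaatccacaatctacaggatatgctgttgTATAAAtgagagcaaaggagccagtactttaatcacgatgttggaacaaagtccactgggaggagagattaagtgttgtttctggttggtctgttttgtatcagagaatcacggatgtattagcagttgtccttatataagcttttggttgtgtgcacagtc
Cyp2c68: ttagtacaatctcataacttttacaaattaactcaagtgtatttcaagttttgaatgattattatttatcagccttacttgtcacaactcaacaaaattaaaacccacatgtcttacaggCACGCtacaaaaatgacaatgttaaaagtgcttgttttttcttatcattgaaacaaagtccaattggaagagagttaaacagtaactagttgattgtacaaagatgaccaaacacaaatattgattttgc
Cyp2c55 held TATAAA 29 bases before its start and Cyp2c65 162 bases before, and Cyp2c68 held GCGTG, as its reverse complement, 130 bases before. Only exact copies of TATAAA were marked, so the similar tatataag nearer the start of Cyp2c65 was not. Promoters of 50 of the 59 genes were in the table. Within the 250 bases before any listed start, TATAAA was in 8 of them, or 16%, against 14.3% of all 27025 genes with a promoter. GCGTG was in 14, or 28%, against 30.9%, and TGACNNNGC in 5, or 10%, against 11.5%. A match is a string of letters and was not tested as a binding site.

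Cyp3a13, Cyp4f14 and Cyp2d26 were also higher in the cluster led by Fabp6 than in that led by Tgm3. So was Cyp4b1, with 48 and 13 UMIs against 0 and 0. Cyp4f13 stood at 50.4 and 52.8 CPM against 32.3 and 28.6 CPM, and Cyp2j6 at 44.4 and 66.5 against 23.1 and 35.3 CPM. Cyp4f40 stood at 44.4 and 34.1 against 26.2 and 13.4 CPM. Other P450 genes of the class, such as Cyp2c68 and Cyp2d34, were not higher there. Cyp3a13, the member here of the drug-oxidising Cyp3a subfamily, stood at 124 CPM in THC and 164 CPM in vehicle in the cluster led by Fabp6, and 51 of its 84 THC UMIs there lay in 1 cell. Cyp4f14, of the subfamily that inactivates leukotriene B4, stood at 74.1 and 66.5 CPM there against 6.15 and 1.68 CPM in the cluster led by Tgm3. Cyp2d26 stood at 57.8 and 51.1 CPM there against 9.23 and 10.1 CPM. Cyp2d34 stood, like Cyp2c68, higher in the cluster led by Tgm3, with 63.1 and 40.3 CPM in the cluster led by Tgm3 against 43.0 and 10.2 CPM in that led by Fabp6, and in THC the intervals overlapped. Cyp2s1 was at 45.9 and 46.0 CPM in the cluster led by Fabp6 and 35.4 and 52.1 CPM in that led by Tgm3, with overlapping intervals. Cyp2s1 (35.8 and 38.9 CPM in the class), Cyp4f13 (38.3 and 37.7 CPM) and the epoxygenase Cyp2j6 (32.6 and 43.8 CPM) were found in more cells, Cyp4f13 for instance in 37 of 90 and 48 of 137.

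**Figure D4:**
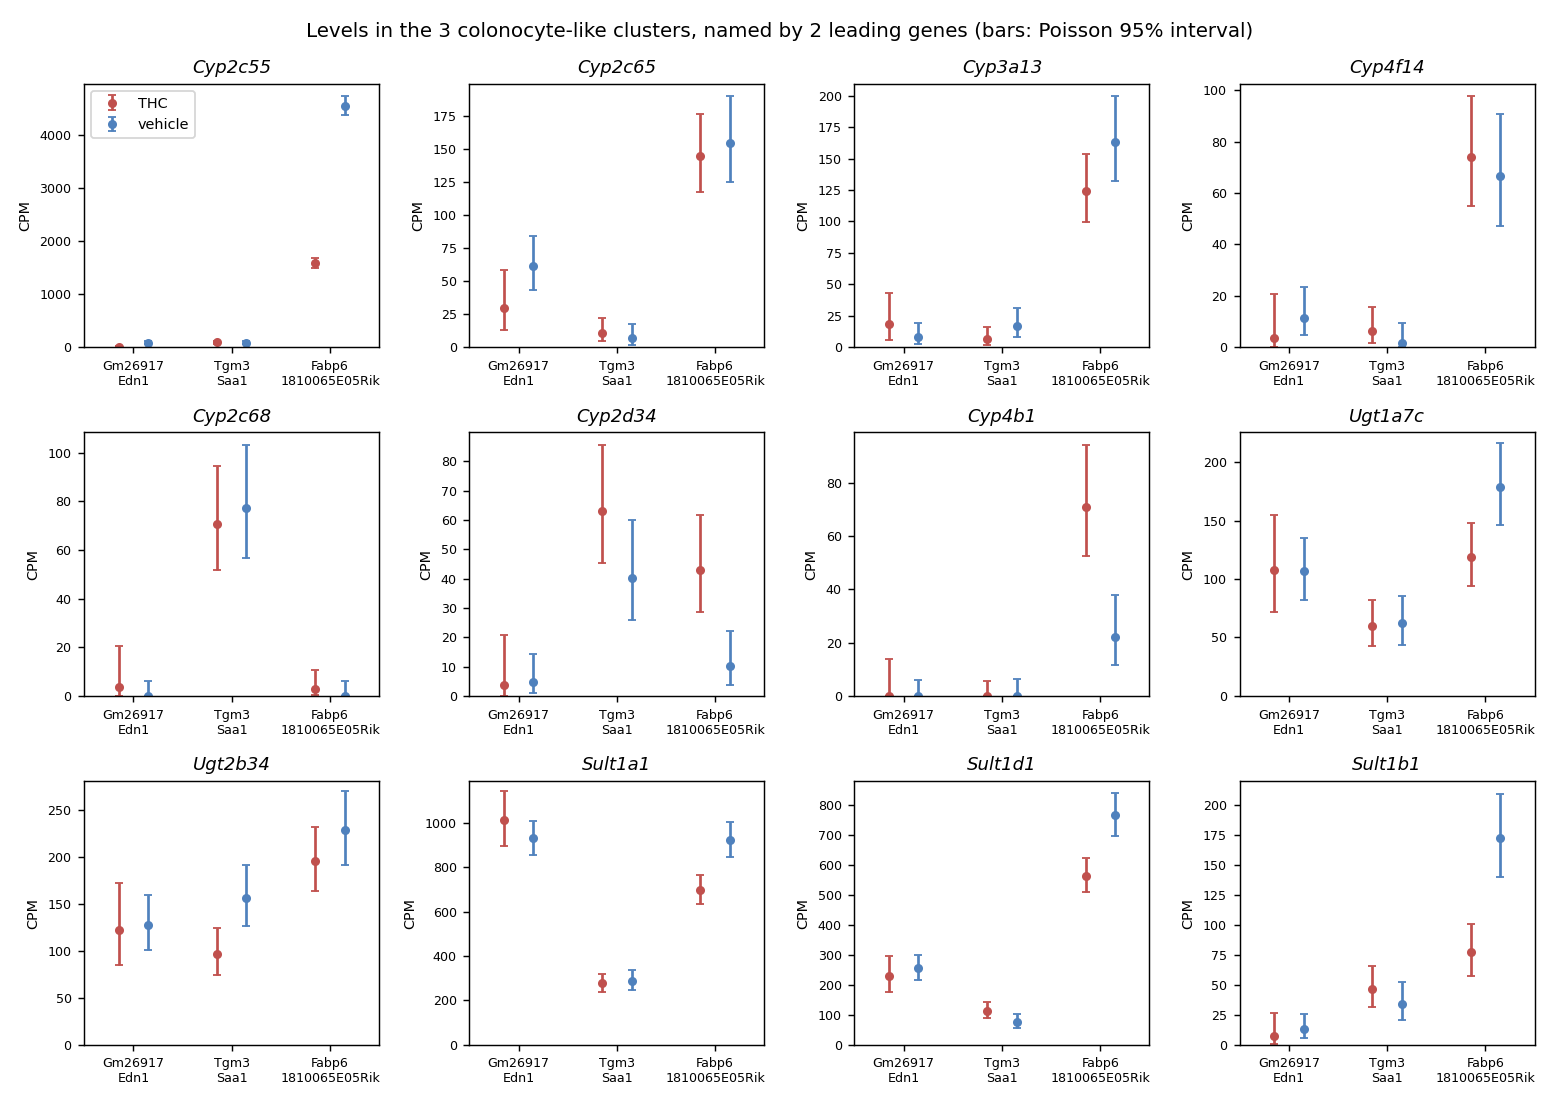
Level of 12 genes in the 3 colonocyte-like clusters, named by leading genes, in CPM (points, red THC and blue vehicle; bars, exact Poisson 95% interval). Cyp2c55, Cyp2c65, Cyp3a13, Cyp4f14, Cyp4b1, Sult1d1 and Sult1b1 were highest in the cluster led by Fabp6 in both libraries, Cyp2c68 and Cyp2d34 in that led by Tgm3.

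Some P450 genes marked cells other than the epithelium. Cyp4b1, a fatty acid and xenobiotic hydroxylase, was led by endothelial-like cells, a class too small for the ranking above. It stood there at 701 CPM (68 UMIs, 544 to 888) in THC and 687 CPM (130 UMIs, 574 to 815) in vehicle. Within that class it came from the cluster led by the lymphatic genes Ccl21a, Mmrn1 and Lyve1, where 13 of 13 THC and 24 of 25 vehicle cells held a UMI, at 841 and 862 CPM. The cluster led by Fabp4, Selp and Plvap held 3 and 4 UMIs, all in 1 cell of each library. The level was close in both libraries.

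Cyp4f18, a leukotriene B4 hydroxylase of white blood cells, was seen only in immune classes. B-like cells held 182 CPM (22 UMIs, 114 to 275) in THC and 94.3 CPM (23 UMIs, 59.8 to 141) in vehicle. Macrophage-like cells held 315 CPM (28 UMIs) and 102 CPM (19 UMIs), and 12 of the 28 THC UMIs lay in 1 cell. Dendritic-like cells held 35.99 and 108 CPM, and 13 of 22 vehicle UMIs lay in 1 cell. The epithelial and stromal classes held 0 UMIs of it in both libraries.

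Cyp2d22, often treated as the mouse counterpart of human CYP2D6, was the leading P450 of fibroblast-like cells. It stood there at 69.2 CPM (44 UMIs, 50.3 to 92.9) in THC and 69.9 CPM (76 UMIs, 55.1 to 87.5) in vehicle, and at 6.27 and 5.55 CPM in colonocyte-like cells. Cyp2d22 was higher in endothelial-like cells, a class too small for the ranking, at 134 and 84.5 CPM (17 and 32 cells). Its 4 neighbours Cyp2d10, Cyp2d12, Cyp2d26 and Cyp2d34 were highest in colonocyte-like cells, so the cluster of Cyp2d genes was divided between stroma and epithelium. Cyp2d10 shares most of its sequence with other Cyp2d genes (43.1% of stretches unique) and its counts are uncertain. Cyp2e1, which oxidises ethanol, had 6 UMIs in 1 THC cell and 14 in 3 vehicle cells of the smooth muscle-like cluster led by Hhip and Actc1, and 2 UMIs elsewhere. Mesothelial-like cells held the highest level of Cyp2s1, at 257 CPM (19 UMIs) and 181 CPM (6 UMIs).

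Of the 8 UGT genes, 7 were highest in colonocyte-like cells in both libraries. Ugt2b34, of the subfamily that conjugates steroids and bile acids, had the most UMIs. It stood at 143 CPM (228 UMIs, 125 to 163) in THC and 170 CPM (306 UMIs, 151 to 190) in vehicle colonocyte-like cells, and at 70.8 and 65.3 CPM in goblet-like cells. It was present in all 3 colonocyte-like clusters, at 96.9 to 196 CPM in THC and 127 to 228 CPM in vehicle. Ugt1a7c stood at 92.8 CPM (148 UMIs) and 115 CPM (208 UMIs) in colonocyte-like cells, and was the UGT gene with most UMIs in fibroblast-like cells, at 12.6 and 12.9 CPM. Ugt1a1, the bilirubin-conjugating enzyme, stood at 11.3 CPM (18 UMIs) and 28.9 CPM (52 UMIs) in colonocyte-like cells. Fibroblast-like, endothelial-like and smooth muscle-like cells held 0 UMIs of Ugt1a1. The remaining Ugt2b5, Ugt2b35, Ugt2b36, Ugt1a6a and Ugt1a6b had 65 UMIs or fewer each. Ugt1a7c, Ugt2b5 and Ugt1a6a share much of their sequence with other UGT genes (39.7%, 12.4% and 9.39% of stretches unique), so how reads were divided among them is uncertain.

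Of the 5 SULT genes, 4 were highest in colonocyte-like cells in both libraries. Sult1a1, which sulfates phenols, stood there at 580 CPM (924 UMIs, 543 to 618) in THC and at 715 CPM (1288 UMIs, 676 to 755) in vehicle. It differed from Cyp2c55 in its place: it was high in the cluster led by Edn1 and Kcnq1 (1014 and 929 CPM) and in that led by Fabp6 (698 and 920.3 CPM), and lower in that led by Tgm3 (277 and 289 CPM). The cycling cluster led by Mki67 held 921 and 811 CPM of it, against 41.3 and 321 CPM of Cyp2c55. Sult1a1 was also found in endothelial-like cells, at 227 CPM (22 UMIs in 10 of 17 cells) and 211 CPM (40 UMIs in 15 of 32 cells), and was close to absent from fibroblast-like cells at 7.86 and 6.44 CPM.

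Sult1d1, which sulfates catecholamines, stood at 324 CPM (516 UMIs, 296 to 353) in THC and 362 CPM (652 UMIs, 335 to 391) in vehicle colonocyte-like cells. Its level in the cluster led by Fabp6 was 564 and 765 CPM. Its neighbour Sult1b1, which acts on phenols and thyroid hormones, stood at 77.0 and 172 CPM in the same cluster, and at 46.2 and 33.6 CPM in the cluster led by Tgm3. Sult1c2 was more even, with 67.1 and 84.9 CPM in colonocyte-like and 36.2 and 63.4 CPM in goblet-like cells. Sult2b1, the cholesterol sulfotransferase, stood at 37.6 and 35.5 CPM in colonocyte-like cells. In vehicle T-like cells it reached 77.8 CPM from 8 UMIs in 4 of 31 cells, against 1 UMI in 23 THC cells.

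The 19 GST genes were the most widely shared family. Gstp1, the pi-class transferase of electrophiles, was found in every named class. It stood at 559 CPM (892 UMIs, 523 to 597) and 552 CPM (995 UMIs, 518 to 588) in colonocyte-like cells, 419 and 436 CPM in smooth muscle-like cells and 311 and 322 CPM in fibroblast-like cells. Macrophage-like cells held the lowest level in both libraries, with 67.5 CPM (6 UMIs) and 64.7 CPM (12 UMIs). Gstp1 shares sequence with Gstp2 and a pseudogene (66.9% and, for Gstp2, 45.8% of stretches unique). Besides Gstp1, the genes highest in colonocyte-like cells in both libraries were Gsto1, Gsta1, Gsta4, Gstk1, Gstm3, Gstm6, Gstp2, Gstt2 and Gstt3. For Gstt2 the lead was small in THC, with 48.9 CPM in colonocyte-like and 48.2 CPM in goblet-like cells.

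Gsto1, of the omega class that reduces dehydroascorbate, stood at 362 CPM (577 UMIs, 333 to 393) in THC and 305 CPM (550 UMIs, 280.3 to 332) in vehicle colonocyte-like cells. It was even over the 3 clusters, at 318 to 409 CPM in THC and 292 to 322 CPM in vehicle. Gsta4, which conjugates the lipid peroxide product 4-hydroxynonenal, stood at 69.6 and 98.8 CPM in colonocyte-like cells but was higher in a small unnamed cluster whose leading genes included Hand1. Mesothelial-like cells, with 5 and 2 cells, also held more, 338 and 362 CPM. The unnamed cluster held 369 CPM (63 UMIs in 13 of 14 cells) in THC and 226 CPM (43 UMIs in 15 of 16 cells) in vehicle. Gsta2 was detected in the unnamed cluster too, with 16 and 15 UMIs. Outside that cluster it appeared in the vehicle smooth muscle-like cells led by Actg2 and Des, with 16 UMIs in 4 of 45 cells and 0 in 31 THC cells. Only 49.6% of the stretches of Gsta2 are unique.

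The mu-class GST genes, which conjugate epoxides and quinones, lie together on 1 chromosome and were highest in different classes. Gstm1 and Gstm2 were highest in fibroblast-like cells. Gstm1 stood there at 522 CPM (332 UMIs, 467 to 581) in THC and 557 CPM (606 UMIs, 514 to 603) in vehicle, with a UMI in 70 of 86 and 130 of 151 cells. It was lower in colonocyte-like cells, at 206 and 225 CPM, and stood at 403 and 404 CPM in smooth muscle-like cells. Gstm2 stood at 258 CPM (164 UMIs, 219.9 to 301) and 241 CPM (262 UMIs, 213 to 272) in fibroblast-like cells and at 144 and 125 CPM in colonocyte-like cells. Gstm5 was highest in smooth muscle-like cells, at 97.5 CPM (61 UMIs) and 87.7 CPM (64 UMIs). Gstm3 was epithelial, with 84.0 CPM (134 UMIs) and 95.5 CPM (172 UMIs) in colonocyte-like cells and 0 UMIs in fibroblast-like, smooth muscle-like and endothelial-like cells. Gstm6 was highest in colonocyte-like cells at 17.6 and 18.3 CPM, Gstm7 in goblet-like cells at 13.6 and 10.7 CPM, and Gstm4 differed between the libraries. The levels of Gstm3 rest on a gene with 57.2% unique stretches, those of Gstm1 on 83.0%.

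The 250 bases before the start of Gstm1, Gstm3 and Gstm5 are shown as neighbours that were highest in fibroblast-like, colonocyte-like and smooth muscle-like cells. They are from the same table and build, with capitals as above. Gstm1, for 1 of its listed starts, lies at chr3:108017819-108018068 on the minus strand, Gstm3 at chr3:107969175-107969424 on the minus strand and Gstm5 at chr3:107895604-107895853 on the plus strand.
Gstm1: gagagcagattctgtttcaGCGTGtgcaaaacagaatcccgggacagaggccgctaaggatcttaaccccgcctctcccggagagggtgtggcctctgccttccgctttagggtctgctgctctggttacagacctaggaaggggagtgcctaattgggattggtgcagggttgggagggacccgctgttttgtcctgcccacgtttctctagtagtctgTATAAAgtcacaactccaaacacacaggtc
Gstm3: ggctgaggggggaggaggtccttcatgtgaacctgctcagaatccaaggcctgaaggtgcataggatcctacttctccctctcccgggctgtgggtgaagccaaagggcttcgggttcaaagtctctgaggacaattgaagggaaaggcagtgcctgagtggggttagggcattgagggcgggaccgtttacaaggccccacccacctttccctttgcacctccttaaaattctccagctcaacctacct
Gstm5: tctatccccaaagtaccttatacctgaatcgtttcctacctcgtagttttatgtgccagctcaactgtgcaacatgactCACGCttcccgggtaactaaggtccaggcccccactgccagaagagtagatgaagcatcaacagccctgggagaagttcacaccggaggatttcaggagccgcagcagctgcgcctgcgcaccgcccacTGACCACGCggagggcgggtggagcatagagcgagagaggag
Gstm1 held TATAAA 30 bases and GCGTG 231 bases before its start. Gstm5 held GCGTG as its reverse complement at 171 and 38 bases and TGACNNNGC at 42 bases before its start. Gstm3 held none of the 3 motifs in this window.

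Gstt1, of the theta class, was highest in smooth muscle-like cells at 117 CPM (73 UMIs, 91.5 to 147) in THC and 158 CPM (115 UMIs, 130.1 to 189) in vehicle. Its neighbours Gstt2 and Gstt3 were highest in colonocyte-like cells. Gstk1, which sits in mitochondria and peroxisomes, stood at 102 and 94.4 CPM in colonocyte-like and 26.7 and 17.5 CPM in fibroblast-like cells. Gsta3 had 361.6 CPM in mesothelial-like cells of the vehicle library, 11 of the 12 UMIs from 1 cell. Gstp3, with 59 UMIs in all, differed between libraries in its highest class. Of the 59 genes 17 had under 90% unique stretches and 7 under 50%, Gsta1 the fewest with 6.48%, and their counts are uncertain in that measure. In all, 42 of the 59 genes had another of the 59 within 300 kb on the chromosome, in 12 groups. The 4 Ugt2b genes shared their highest class in both libraries. So did Cyp2c55 with Cyp2c65, Cyp2c68 with Cyp2c69 and Sult1b1 with Sult1d1. The Cyp2d, Cyp2j, Gstt and Gstm groups did not. Nor did the Cyp4f, Ugt1a, Gsta and Gstp groups, where Cyp4f17, Ugt1a6b, Gsta2 and Gstp3 stood apart.

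The second comparison asked whether the levels differed after THC. Ratios of CPM, THC over vehicle, were taken in the 2 classes of at least 50 cells per library, for genes with at least 20 UMIs over both. In colonocyte-like cells 43 of the 59 genes could be measured. Of these, 3 were at least 2-fold higher in THC and 3 at least 2-fold lower, 6.98% each. Over the 9107 genes measured in the class the shares were 2.06% and 2.12%. The median log2 ratio of the 43 genes was -0.06, beside 0.01 for all genes. Most genes of the families therefore stood at similar levels in the THC and vehicle libraries.

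**Figure D5:**
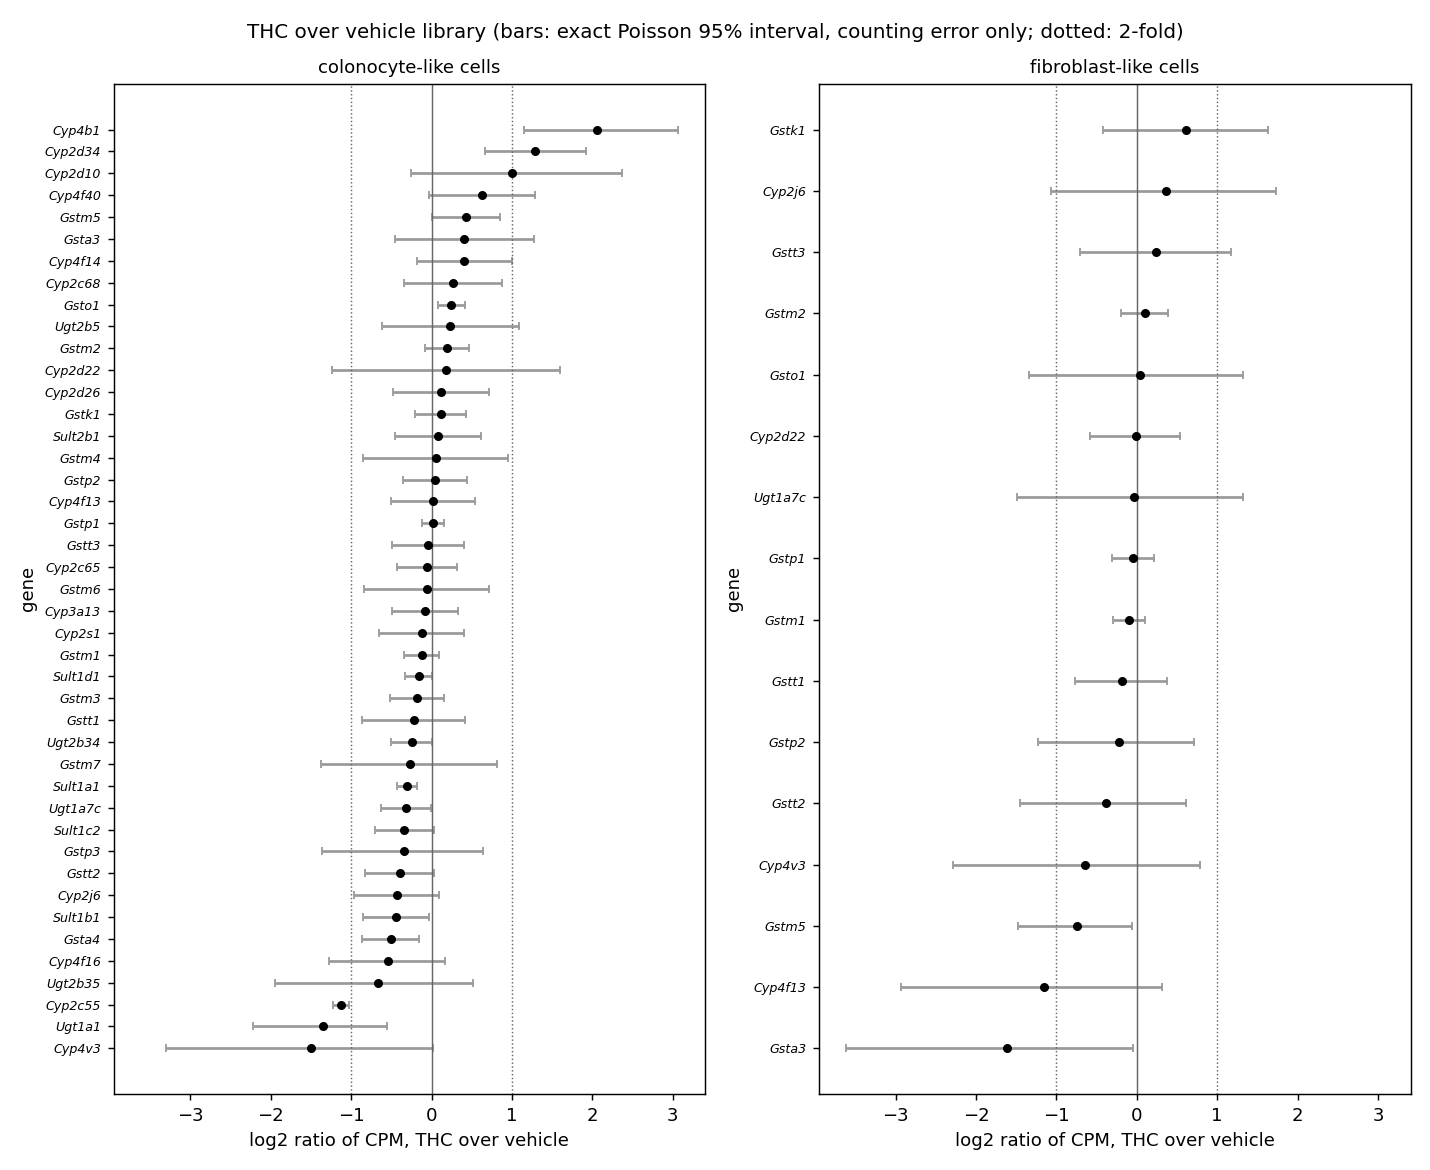
Log2 ratio of CPM, THC over vehicle, for the 43 genes measured in colonocyte-like and the 16 measured in fibroblast-like cells (points; bars, exact Poisson 95% interval; dotted lines, 2-fold). Most points lie between the dotted lines; Cyp4b1 (2.06) and Cyp2c55 (-1.12) stand outside with intervals beyond 2-fold.

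Cyp2c55 was 2.18-fold lower in the THC library, 707 against 1540.2 CPM, a log2 ratio of -1.12 (-1.22 to -1.02). Within the cluster led by Fabp6 the log2 ratio was -1.53 (-1.63 to -1.43), in that led by Edn1 it was -3.44 (-6.53 to -1.51, from 2 and 50 UMIs), and in that led by Tgm3 the levels were 89.2 and 80.7 CPM. The class was made up differently in the libraries: in THC the cluster led by Tgm3 held most cells (39 of 90, with 31 in that led by Fabp6 and 20 in that led by Edn1), in vehicle that led by Edn1 (63 of 137, with 40 in that led by Tgm3 and 34 in that led by Fabp6). Weighted to an equal mix of clusters, the log2 ratio was -1.49. The difference was under 2-fold in 4 settings: -0.55 with other cell limits, -0.89 under 10% mitochondrial UMIs, -0.76 as a mean over cells and -0.26 where the libraries were clustered separately. Without the richest cell of each library, which held 347 of 1127 and 595 of 2775 UMIs, the log2 ratio was -1.31.

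Ugt1a1 was lower in the THC library, at 11.3 against 28.9 CPM, a log2 ratio of -1.35 (-2.22 to -0.56). As a mean over cells it was 0.05. Cyp2d34 was higher, at 44.5 CPM (71 UMIs in 19 of 90 cells) against 18.3 CPM (33 UMIs in 17 of 137 cells), a log2 ratio of 1.28 (0.67 to 1.92), and between 0.64 and 0.93 in 3 other settings. Cyp4b1 was higher, at 30.1 CPM (48 UMIs) against 7.22 CPM (13 UMIs), a log2 ratio of 2.06 (1.15 to 3.07). Of its 48 THC UMIs 36 lay in 1 cell, and without the richest cell of each library the log2 ratio was 0.76. The other genes past 2-fold, Cyp2d10 (16 and 9 UMIs, log2 ratio 1.01) and Cyp4v3 (5 and 16 UMIs, -1.502), had intervals that reached 0.

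In the cluster led by Fabp6 34 genes were measured, 3 of them at least 2-fold higher and 3 lower, 8.82% each, beside 5.76% and 2.65% of the 6161 genes measured there. Sult1b1 was lower there, at 77.0 CPM (57.5 to 101) against 172 CPM (140.2 to 209), a log2 ratio of -1.16. Ugt2b5 was higher, at 29.6 against 10.2 CPM (20 and 6 UMIs), a log2 ratio of 1.53 (0.17 to 3.14). The median of the 34 genes was -0.24, beside 0.10 for all genes of the cluster. In the cluster led by Edn1 0 of 23 genes were 2-fold higher (2.47% of all genes) and 2 lower (5.76%), and in that led by Tgm3 1 of 31 was higher (2.84%) and 0 lower (2.67%). In these clusters the medians were -0.06 and 0.18, beside 0.01 and 0.01 for all genes.

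After Cyp2c55, the most abundant of the genes in the colonocyte-like class were Sult1a1, Gstp1, Gsto1 and Sult1d1, and these 4 differed by less than 2-fold. Sult1a1 had a log2 ratio of -0.30 (-0.43 to -0.18), Gstp1 of 0.02 (-0.11 to 0.15) and Sult1d1 of -0.16. Gsto1 had a log2 ratio of 0.25 (0.07 to 0.42), above 0 but under 2-fold. Among less abundant genes, Cyp2c65 had a log2 ratio of -0.06, Cyp3a13 of -0.08 and Gsta4 of -0.50, the last with an interval below 0.

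In fibroblast-like cells 16 genes could be measured. None was at least 2-fold higher, beside 2.06% of the 7769 genes measured in the class, and 2 were at least 2-fold lower, 12.5% beside 3.1%. Gsta3 was lower, with 4 UMIs in 86 THC cells (6.29 CPM) against 21 UMIs in 151 vehicle cells (19.3 CPM), a log2 ratio of -1.62 (-3.62 to -0.05), and -0.22 in cells with at least 2500 UMIs. Cyp4f13 had 5 and 19 UMIs and a log2 ratio of -1.15 (-2.93 to 0.32). The leading genes were close: Gstm1 had a log2 ratio of -0.09 (-0.29 to 0.10), Gstm2 of 0.10, Gstp1 of -0.05 and Cyp2d22 of -0.01 (-0.58 to 0.54). The median of the 16 genes was -0.07, beside 0.00 for all genes.

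The goblet-like and smooth muscle-like classes, of at least 40 cells per library, were added after the data were seen. In goblet-like cells 22 genes were measured, and 0 were 2-fold higher (1.9% of all genes) or lower (2.46%), with a median log2 ratio of 0.16. In smooth muscle-like cells 12 were measured. Gsto1 was at 30.4 against 15.1 CPM (19 and 11 UMIs), a log2 ratio of 1.01 (-0.13 to 2.23), and 0 of the 12 were 2-fold lower, beside 1.71% and 3.67% of all genes. Gstm1 stood at 403 and 404 CPM there, and the lowest log2 ratio was that of Cyp2e1, from 6 and 14 UMIs.

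The genes around these enzymes were read from 7 lists of 69 genes: xenobiotic sensors, Nrf2 targets with glutathione supply, P450 electron donors, cosubstrate supply, other phase 1 enzymes, other conjugation enzymes and drug efflux transporters. In colonocyte-like cells 9 of 11 sensor genes could be measured and none was past 2-fold in either direction, with a median log2 ratio of 0.13. The same held for the 9 measured of 11 Nrf2 target and glutathione genes (median 0.26), the 4 electron donors (0.18), the 7 cosubstrate genes (0.07), 7 of 12 other conjugation enzymes (0.09) and 5 of 9 transporters (-0.34). Of 15 other phase 1 enzymes 1 was 2-fold lower, Fmo1, a flavin monooxygenase, with 6 and 19 UMIs and a log2 ratio of -1.49 (-3.10 to -0.11). Over the 7 lists, 56 genes were measured in this class, with 1 (1.79%) lower and 0 higher, beside 2.12% and 2.06% of all genes.

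In the cluster led by Fabp6 49 of the listed genes were measured, and 4 were at least 2-fold lower, 8.16% beside 2.65% of all genes there. Ces2a, a carboxylesterase of drug and ester hydrolysis, stood at 83.0 against 281 CPM (56 and 165 UMIs), a log2 ratio of -1.76 (-2.23 to -1.32). Ggt1, which cleaves glutathione outside the cell, had a log2 ratio of -1.30 (-2.33 to -0.34, from 14 and 30 UMIs), and the flavin monooxygenase Fmo5 of -1.11 (-2.08 to -0.19, from 16 and 30 UMIs). The fourth, the transporter gene Slc22a5, had an interval that reached 0. Gstz1 alone was 2-fold higher, 2.04% beside 5.76%, with 20 and 7 UMIs and a log2 ratio of 1.31 (0.01 to 2.80). In the cluster led by Edn1 1 of 37 measured was 2-fold lower, Ces1f (log2 ratio -1.02, -2.06 to -0.10), and 0 were higher. In that led by Tgm3 0 of 38 were past 2-fold.

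The sensors were spread over several classes. Nr1i2, the pregnane X receptor, was highest in colonocyte-like cells at 37.6 and 41.1 CPM with 0 UMIs in fibroblast-like cells, and the epithelial factor Hnf4a stood at 193 and 177 CPM. Ahr, the aryl hydrocarbon receptor, was highest in T-like cells, and stood at 11.9 and 10.5 CPM in colonocyte-like and 20.4 and 25.7 CPM in fibroblast-like cells. Nfe2l2, which encodes Nrf2, stood at 239 and 236 CPM in colonocyte-like cells. Papss2, which makes the sulfate donor, was highest in colonocyte-like cells at 380.1 and 314 CPM, the class that also led for the SULT genes.

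In fibroblast-like cells 37 of the listed genes were measured. Of these 3 were at least 2-fold lower, 8.11% beside 3.1% of all genes, and 0 were higher, beside 2.06%. Cyb5b, an electron donor, had a log2 ratio of -1.09 (-2.20 to -0.10, from 11 and 40 UMIs). Ces1d, a carboxylesterase, stood at 184 against 369 CPM (117 and 401 UMIs), a log2 ratio of -1.003 (-1.31 to -0.70). Over all barcodes within the limits it had 713 and 1305 UMIs, so most of its RNA lay outside this class. An unnamed cluster of 7 THC and 5 vehicle cells had Ces1d as its first leading gene. It met 8 fibroblast markers but is not part of the fibroblast-like class. The third, Papss2 of the cosubstrate list, had an interval that reached 0.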

How the data were processed

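The deposited matrices hold raw UMI counts per gene and barcode, made by the authors with Cell Ranger 3.0.2 per the file headers. Named too, per the submitters' processing notes, are bcl2fastq and Seurat. Which genome build they counted on was not given in the sources used here. In all, the THC matrix held 737280 barcodes and the vehicle matrix 973, the lowest with 502 UMIs. Of these, 436 and 703 passed the limits of the report, and 1 doublet in each was removed with scrublet (scanpy 1.11.5; 0.8% expected for every 1000 cells), which is too few to test the caller. In all, 4945822 and 6522425 UMIs were analysed.

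Counts were scaled to 10000 per cell and logged, and both libraries were clustered together from 2000 variable genes each (30 principal components, 15 neighbours, Leiden resolution 1, leidenalg 0.10.2). Left out of these were all 137 genes with a symbol of the families, the 59 among them. Ribosomal protein genes and those of the mitochondrial genome, immunoglobulins and T cell receptors were left out too. Of the sex chromosomes, only Xist, Tsix, Ddx3y, Eif2s3y, Uty and Kdm5d were left out. A cluster took the name of the class with the most support among 21 marker lists, if at least 3 markers were in 10% of its cells and 1 log2 unit above all other cells. A cluster whose leading genes belonged to another class stayed unnamed. Free RNA stayed in the counts.

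CPM are UMIs summed over a class and library per 1000000, with exact Poisson 95% intervals, and exact conditional intervals for ratios (scipy 1.17.1). A level of 0 allows 3 counts. Code was tested on simulated data. Sharing of sequence was read as 50-base windows in the first 500 bases of GENCODE M21 transcripts.

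Named are the 5 genes of highest CPM of each class, genes past 2-fold with an interval that excludes 0, the 3 of each family with the most UMIs in the classes of at least 50 cells, and those near the limit. Other names were chosen after their values were seen. The 59 genes and the lists were chosen with earlier results of these data known. In all, 17 alternatives were run, of cell limits, clustering, depth, summing, scaling and count minimum. Barcodes of 15% or more mitochondrial UMIs (192 and 208) were left out of the comparisons.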

Additional observations from a re-analysis of the deposited data

Results flagged for a closer look

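The 192 THC and 208 vehicle barcodes left out for their mitochondrial share held 3938 and 4435 CPM of these families. This was above the 2538 and 2556 CPM of all kept cells together, but below the 4390 and 5425 CPM of kept colonocyte-like cells. In the left-out barcodes 7 of the 59 genes stood at least 3-fold above their level in all kept cells of the same library. This held in both libraries, with at least 20 UMIs in each. The 3-fold rule was not set against colonocyte-like cells alone. The share of all genes that pass it was not taken, so whether 7 of 59 is unusual cannot be said. Cyp2c55 stood at 1451 CPM in THC and 1999.6 CPM in vehicle, against 236 and 449 CPM in all kept cells, and its log2 ratio, THC over vehicle, was -0.46 (-0.55 to -0.37). Cyp2d34 stood at 356 CPM (428 UMIs in 73 barcodes) and 146 CPM (174 UMIs in 49 barcodes), against 14.7 and 5.36 CPM, and its log2 ratio was 1.28 (1.03 to 1.55). Sult1b1 stood at 83.1 and 101 CPM, Cyp3a13 at 78.1 and 92.3 CPM, Sult2b1 at 51.5 and 54.6 CPM, Cyp4f14 at 56.5 and 59.6 CPM and Cyp2d10 at 19.1 and 17.6 CPM. These barcodes belong to no named class, and what they hold was not tested.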

How the results depend on the processing

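The median log2 ratio of the genes ran from -0.28 to 0.15 in colonocyte-like cells (14 alternatives, -0.06 as reported). In fibroblast-like cells it ran from -0.28 to 0.07 (15 alternatives, -0.07 as reported). Counts past 2-fold moved as well. In colonocyte-like cells the counts of higher and lower genes, 3 and 3, were 0 and 1 with THC cells from 2525 and vehicle cells from 500 UMIs at a mitochondrial limit of 10%, 0 and 1 after thinning every cell to 1000 UMIs, 5 and 5 where the libraries were clustered separately and 7 and 5 with 1 UMI in each library as the only minimum. The higher count was 1 under 10% mitochondrial UMIs, 1 when each gene's richest cell was dropped and 1 with clusters weighted to an equal mix. In fibroblast-like cells the counts, 0 and 2, were 2 and 1 at Leiden resolution 0.5, and 2 and 0 with separate clustering. The higher count was 3 with 1 UMI as the minimum. The lower count was 1 at resolution 2, 1 under 5% mitochondrial UMIs, 1 as a mean over cells, 0 after thinning and 0 with a minimum of 50 UMIs. The same highest class was found for 49 genes, for 24 under 5% mitochondrial UMIs and for 29 after thinning. Colonocyte-like cells led for 39, for 0 under 5% mitochondrial UMIs, where no cluster had that name and no ratio could be given, and for 23 after thinning. They led for 36 with classes of at least 10 cells per library, and for 19 with unnamed clusters of that size counted too. The alternatives with a limit of 10 cells, like the equal mix, were chosen after seeing the data. Shares over all genes were not taken for the alternatives. Ugt1a1 changed sign, to 0.049, as a mean over cells. Cyp2c55 was lower in THC in all 12 alternatives, from -1.49 to -0.26. The causes were not tested. Depth limits low genes: 16 of the 59 had under 20 UMIs in colonocyte-like cells. No paired analysis was possible because each group had 1 library and the labels carry no replicate numbers.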
